A study of Mus musculus with 12 samples.

Results

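Parvalbumin, calmodulin, calcium/calmodulin-dependent kinase II (CaMKII) and calcineurin carry the cytosolic calcium signal of a muscle fiber, and 9 of their genes are described here: Pvalb, Calm2, Calm3, Camk2a, Camk2b, Camk2g, Ppp3ca, Ppp3cb and Rcan1. They were chosen by name, with earlier results of these data known. All 9 were found among the 55367 gene symbols of the files, and all 9 were among the 14429 protein-coding and mitochondrially-encoded genes that were tested, which had a group mean of at least 0.02 TPM (transcripts per 1000000, a level per transcript length) in 1 group or more. The samples were myofibers of mouse skeletal muscle in 3 groups of 4: young fibers from mice aged 3 to 4 months, and Fluo-4 normal and Fluo-4 abnormal fibers, both from mice aged 26 to 28 months. Fluo-4 is a fluorescent calcium dye, and the aged fibers were separated under a stereomicroscope by its staining. The paper describes the abnormal staining in aged male mice and found hardly any such fibers in aged females. The methods name C57BL/6J mice, without giving the strain of the aged mice separately, and dye-stained fibers from collagenase-dissociated extensor digitorum longus (EDL) muscle, a fast muscle of the lower leg. The number of fibers and of mice behind each sample is not given in the sources used here. The p-values therefore measure the spread between samples, which may be partly technical.

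Parvalbumin is a soluble calcium-binding protein of fast fibers that takes up calcium after a twitch and so helps the fiber to relax. Calmodulin, made from several genes that code for the same protein, binds calcium and then activates CaMKII, a kinase built from alpha, beta, gamma and delta subunits, and calcineurin, a phosphatase built from a catalytic A subunit and a regulatory B subunit. In skeletal muscle calcineurin dephosphorylates NFAT transcription factors, a pathway known for its part in the slow fiber program, and Rcan1 is both an inhibitor of calcineurin and a textbook target of NFAT.

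Promoters are shown for the letters that NFAT binds, for Rcan1 as a known NFAT target and for 3 members described in detail below. RefSeq promoter sequences were searched for 5 of the 9 members, with 7 start sites in all. Calm2, Camk2g and Ppp3ca had no entry, and Camk2a was not included in the search. The 250 bases before a start are printed 5′ to 3′ on the gene's strand in the build GRCm38.p6 of that table. Capitals mark the NFAT core GGAAA on either strand, so TTTCC is the core read on the other strand.
Rcan1, start inside the gene, chr16:92400079-92400328, minus strand: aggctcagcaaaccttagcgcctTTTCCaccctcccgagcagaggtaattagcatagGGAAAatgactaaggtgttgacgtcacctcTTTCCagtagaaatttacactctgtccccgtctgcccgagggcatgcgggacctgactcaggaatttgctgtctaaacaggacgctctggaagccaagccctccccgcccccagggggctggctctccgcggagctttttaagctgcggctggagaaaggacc
Rcan1, outer start, chr16:92466170-92466419, minus strand: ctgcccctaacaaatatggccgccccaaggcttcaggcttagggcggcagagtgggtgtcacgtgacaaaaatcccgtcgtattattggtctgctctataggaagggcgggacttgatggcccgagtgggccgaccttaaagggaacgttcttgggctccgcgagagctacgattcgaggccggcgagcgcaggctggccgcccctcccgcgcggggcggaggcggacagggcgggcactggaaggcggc
Calm3, chr7:16924033-16924282, minus strand: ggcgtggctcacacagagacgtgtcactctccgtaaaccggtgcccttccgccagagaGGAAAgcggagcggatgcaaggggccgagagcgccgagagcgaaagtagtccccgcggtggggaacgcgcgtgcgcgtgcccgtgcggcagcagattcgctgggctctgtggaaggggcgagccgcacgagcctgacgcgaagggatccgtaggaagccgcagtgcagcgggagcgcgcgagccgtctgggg
Camk2b, chr11:6065749-6065998, minus strand: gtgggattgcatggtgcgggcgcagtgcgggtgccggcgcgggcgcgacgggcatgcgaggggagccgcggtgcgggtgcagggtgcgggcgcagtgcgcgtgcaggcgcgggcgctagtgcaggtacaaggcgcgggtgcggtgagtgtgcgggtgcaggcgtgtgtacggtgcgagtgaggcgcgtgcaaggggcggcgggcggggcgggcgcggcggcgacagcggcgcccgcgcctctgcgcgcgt
Pvalb, outer start, chr15:78206401-78206650, minus strand: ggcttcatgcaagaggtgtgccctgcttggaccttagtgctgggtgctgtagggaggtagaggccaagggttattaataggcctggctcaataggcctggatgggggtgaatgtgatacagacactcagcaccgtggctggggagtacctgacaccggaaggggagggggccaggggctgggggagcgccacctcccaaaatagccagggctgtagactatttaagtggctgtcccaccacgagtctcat
The inner Rcan1 window held 3 cores and the outer Rcan1 window 0. Calm3 held 1, Camk2b 0 and both Pvalb windows 0, while Ppp3cb (not printed) held 3. The core was present in 55.6% of 32851 promoter windows of the same length, so its presence is common. A fixed form of the MEF2 motif, CTA and TAG with any 4 bases between them, was searched on both strands. This form was found in none of the 7 windows and in 3.20% of all windows. Other forms were not searched, such as ttattaatag in the printed Pvalb window, so a lack of MEF2 sites is not shown. The files give 1 value per gene, so the starts of Rcan1 could not be told apart.

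In GRCm39, the build of the files, the GENCODE annotation places Pvalb at chr15:78075314-78091149 (minus strand), Ppp3ca at chr3:136375445-136643491 (plus), Camk2b at chr11:5915791-6016362 (minus), Calm3 at chr7:16649290-16658156 (minus) and Rcan1 at chr16:92188840-92267755 (minus). Camk2b overlaps 1990 bases of the protein-coding gene Ykt6 on the other strand, which averaged 12.6 TPM, and the kit is not stated to mark strand. Reads there could therefore belong to either gene. Camk2b also overlaps 2 non-coding genes, Gm74286 by 5461 bases on the other strand and Gm74282 by 3563 bases on its own strand. Neither had a level in the files. Calm2 (chr17:87740829-87754363), Camk2g (chr14:20784942-20844541), Ppp3cb (chr14:20548406-20596668), Ppp3ca and Rcan1 overlap non-coding genes, which averaged at most 2.85 TPM where the files list them. Calm2 has the processed pseudogenes Gm7308 and Gm15720, and Calm3 has Gm5881, each at least 95% identical to the transcript, which reached at most 1.23, 1.72 and 1.43 TPM in any sample. These levels were small beside those of the calmodulin genes.

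The samples carried the markers of muscle fibers. The summed level of Acta1, Ckm, Ttn, Des and Myh4 lay between 66524 and 97715 TPM in the 12 samples. Transcripts of other cells were present as well. Summed erythroid markers were at 33.1 to 121 TPM in young, 119 to 482 TPM in Fluo-4 normal and 44.4 to 236 TPM in Fluo-4 abnormal fibers, and summed fibroblast markers at 18.9 to 34.8, 24.7 to 80.0 and 13.5 to 62.1 TPM. Of the 5 adipocyte markers Adipoq, Plin1, Lep and Cidec were at 0 in all samples, while Fabp4 was at 15.4 to 28.6, 32.7 to 109 and 8.28 to 64.4 TPM in the same order. Summed satellite cell markers reached 14.1 TPM, endothelial 15.1, Schwann 7.98 and smooth muscle 66.7 TPM at most, and summed neuron markers 0.137 TPM, with Snap25 and Gad1 at 0. No marker of these lists of other cells passed the test between the aged groups, where 1 adipocyte and 1 neuron marker could be tested. Of the muscle fiber markers Des and Myh4 were called higher in Fluo-4 abnormal fibers. Summed immune markers were 1.01 to 1.69 TPM in Fluo-4 normal fibers and 2.63 to 5.71 TPM in Fluo-4 abnormal fibers. Of these markers Cd3e alone passed the test, at 0.608 to 0.854 and 2.10 to 4.86 TPM in the same order. The others, Ptprc, Cd68, Adgre1 and Csf1r, overlapped between the aged groups. The part of these other cells in any result was not tested. The fast myosin gene Myh4 held 96.9 to 98.6% of the adult myosin heavy chain TPM in young fibers. Its share was 93.7 to 99.2% in Fluo-4 normal fibers and 98.9 to 99.7% in Fluo-4 abnormal fibers. Mitochondrially-encoded genes held 8.75 to 10.9% of all TPM in Fluo-4 normal fibers, 4.75 to 6.92% in Fluo-4 abnormal fibers and 7.35 to 8.01% in young fibers. TPM is a share of a fixed total, and the median tested gene was higher in Fluo-4 abnormal than in Fluo-4 normal fibers by 0.10 on the log2 scale, and by 0.20 among the 5994 genes with a mean of at least 5 TPM. Results are therefore also given after rescaling the samples by TMM-type factors, which brought the median to 0.00. TPM keeps no sequencing depth, so the depth is unknown. In bulk samples, fewer fibers with a transcript and less of it per fiber cannot be told apart.

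The 9 genes spanned a wide range of levels. Pvalb was the 8th highest of 14429 tested genes, with a mean of 22389 TPM over the 12 samples, or 2.44% of all TPM in young fibers. Calm2 followed at 254 TPM, then Camk2a at 106, Ppp3ca at 82.8, Calm3 at 79.7, Rcan1 at 57.8, Camk2b at 47.8, Ppp3cb at 25.1 and Camk2g at 7.16 TPM. In young fibers the order was Pvalb, Calm2, Camk2a, Calm3, Ppp3ca, Rcan1, Camk2b, Ppp3cb and Camk2g, and the ranges of neighbors overlapped at Ppp3ca and Rcan1 alone. In Fluo-4 normal fibers the order changed at 1 place, with Ppp3ca above Calm3, and Camk2a, Ppp3ca, Calm3, Rcan1 and Camk2b formed a chain of overlapping ranges. In Fluo-4 abnormal fibers Camk2b (52.2 to 83.9 TPM) stood above Rcan1 (49.4 to 67.5 TPM), with overlapping ranges.

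**Figure D1:**
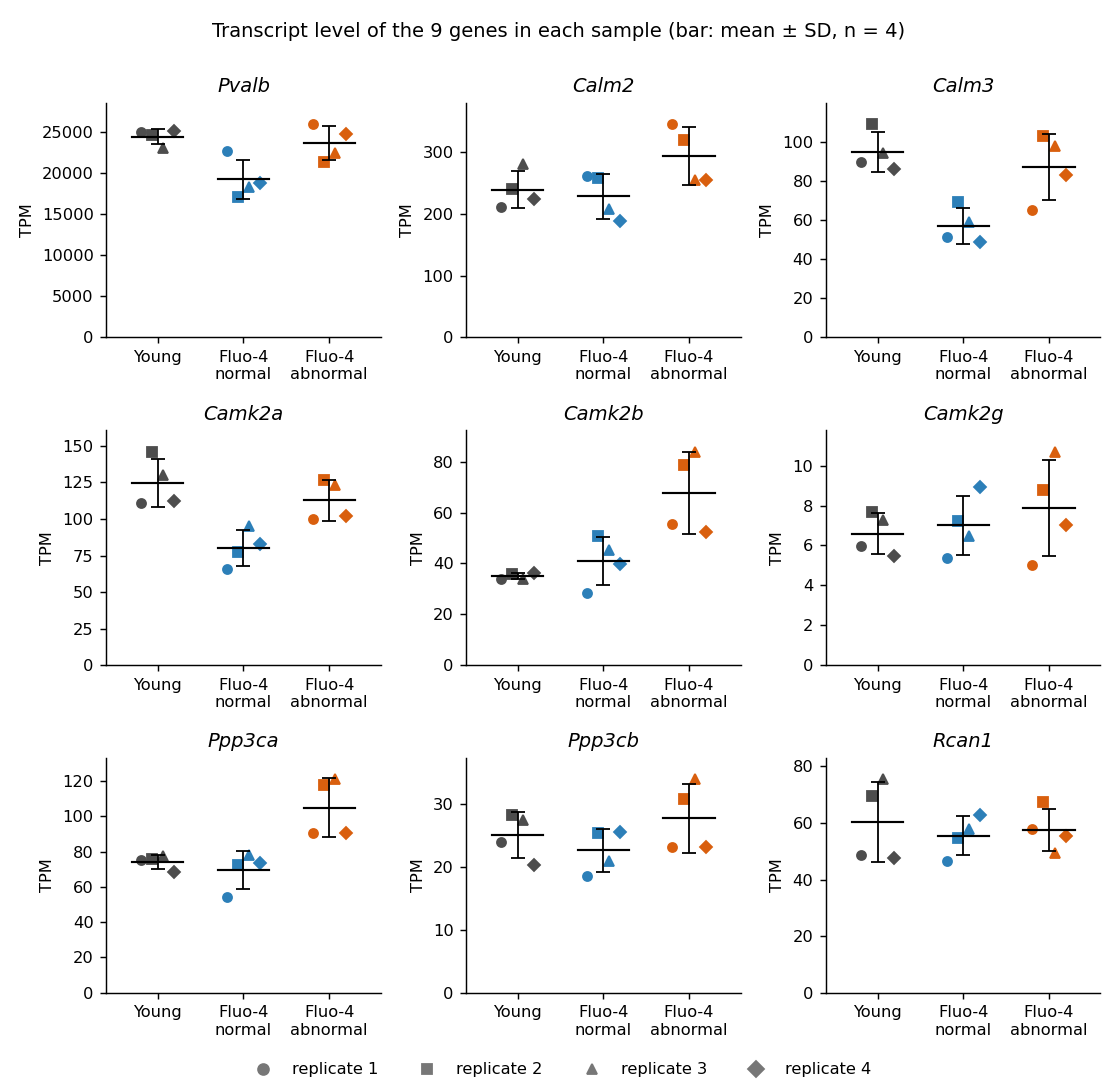
TPM of the 9 genes in each of the 12 samples, with 1 panel a gene, groups on the horizontal axis, marker shapes for the replicate number, and bars for the mean ± SD (n = 4). The 4 Fluo-4 abnormal samples of Camk2b (52.2 to 83.9 TPM) and Ppp3ca (90.4 to 121 TPM) lie above all 8 others, while the Rcan1 groups overlap.

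The central question was which of these genes differed between Fluo-4 abnormal and Fluo-4 normal fibers of the same age. Camk2a, Camk2b, Calm3 and Ppp3ca were higher in Fluo-4 abnormal fibers, by 1.40 to 1.64 times, and no member was called lower. These were 4 of 9 members, beside 9.35% of all tested genes called in either direction and 7.36% called higher. Calls were more common among genes of higher level, where the 9 members lie. With a filter of 5 TPM, 1710 of 6348 genes were called, 1419 of them higher, and 5 of 9 members. The ranges of the aged groups did not overlap for Camk2a, Camk2b and Ppp3ca, or 3 of 9 members, beside 14.0% of all genes. The median change of the 9 members was 0.36 on the log2 scale, compared with 0.10 over all genes and 0.20 among genes with a mean of at least 5 TPM. With TMM-type rescaling Ppp3ca was the single member called, beside 5.88% of all genes. Same-numbered aged samples deviated together, and with the replicate number as a block 6 members were called, all higher, beside 15.8% of all genes. The added members were Pvalb and Calm2. Scaling without the mitochondrially-encoded genes left 3 members called, Calm3, Camk2b and Ppp3ca (adjusted p = 0.037, 0.043 and 0.022), beside 6.66% of all genes.

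The buffer Pvalb was at 24903, 24525, 23051 and 25084 TPM in young fibers, at 22641, 17014, 18312 and 18789 TPM in Fluo-4 normal fibers, and at 25897, 21358, 22401 and 24688 TPM in Fluo-4 abnormal fibers. Every Fluo-4 normal sample lay below every young sample, while the aged groups overlapped through Fluo-4 normal replicate 1. The mean was 24391 ± 923 TPM (SD, n = 4) in young, 19189 ± 2420 in Fluo-4 normal and 23586 ± 2076 in Fluo-4 abnormal fibers. Pvalb was 1.23 times as high in Fluo-4 abnormal as in Fluo-4 normal fibers (log2 change 0.30 ± 0.12 SE, 95% limits 0.05 to 0.55, adjusted p = 0.12), with a higher value in 4 of 4 same-numbered pairs. With the replicate block the adjusted p of Pvalb was 0.013, and with TMM-type rescaling its log2 change was 0.07 (adjusted p = 0.91). Against young fibers the log2 change of Pvalb was -0.35 ± 0.12 in Fluo-4 normal fibers (95% limits -0.60 to -0.10, adjusted p = 0.18) and -0.05 ± 0.12 in Fluo-4 abnormal fibers (95% limits -0.30 to 0.20, adjusted p = 0.84). Neither passed the test. Over the genes with a filter of 5 TPM, which are fewer, the Pvalb changes were the same 0.30 between the aged groups and -0.35 for Fluo-4 normal against young fibers, and both were called (adjusted p = 0.028 and 0.046).

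Calm3 and Calm2 code for calmodulin. Calm3 was at 89.9, 109, 94.2 and 86.0 TPM in young fibers, 51.5, 69.0, 58.8 and 48.7 TPM in Fluo-4 normal fibers, and 65.3, 103, 97.8 and 83.2 TPM in Fluo-4 abnormal fibers. All Fluo-4 normal samples were below all young samples, and the aged groups overlapped through the low Fluo-4 abnormal replicate 1, which was still above its own Fluo-4 normal partner. The change of Calm3 from young to Fluo-4 normal fibers was -0.73 ± 0.14 on the log2 scale (0.60 times the young level, adjusted p = 0.027). Fluo-4 abnormal fibers were 1.51 times above Fluo-4 normal fibers in Calm3 (log2 change 0.60 ± 0.14, adjusted p = 0.019) and differed from young fibers by -0.13 ± 0.14 (95% limits -0.43 to 0.17, adjusted p = 0.63). That difference from young fibers was -0.30 (adjusted p = 0.16) after TMM-type rescaling. With TMM-type rescaling the abnormal to normal change of Calm3 was 0.37 (adjusted p = 0.096). That Calm3 call was also lost without Fluo-4 normal replicate 1 or 4 or Fluo-4 abnormal replicate 2 or 3, with changes of 0.51 to 0.55 and adjusted p of 0.054 to 0.075. The Calm3 difference between Fluo-4 normal and young fibers was lost without young replicate 1, 2 or 3, Fluo-4 normal replicate 1, 3 or 4, or Fluo-4 abnormal replicate 4 (log2 change -0.75 to -0.66, adjusted p 0.053 to 0.13).

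Calm2 was at 211, 240, 280 and 224 TPM in young fibers, 261, 258, 207 and 188 TPM in Fluo-4 normal fibers, and 345, 320, 255 and 254 TPM in Fluo-4 abnormal fibers. The ranges of all 3 groups overlapped. Calm2 was 1.28 times as high in Fluo-4 abnormal as in Fluo-4 normal fibers (log2 change 0.36 ± 0.13, adjusted p = 0.10), was higher in 4 of 4 pairs and reached an adjusted p of 0.013 with the replicate block. The same Calm2 change was 0.13 (adjusted p = 0.71) with TMM-type rescaling and 0.30 (adjusted p = 0.23) without the mitochondrially-encoded genes.

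The CaMKII genes held the largest change among the 9 members. Camk2b, coding for the beta subunit, was at 34.0, 35.9, 33.8 and 36.3 TPM in young fibers, 28.2, 50.6, 45.2 and 39.8 TPM in Fluo-4 normal fibers, and 55.6, 78.8, 83.9 and 52.2 TPM in Fluo-4 abnormal fibers. The last 4 values were above the other 8. Compared with young fibers, Camk2b was 1.87 times higher in Fluo-4 abnormal fibers (log2 change 0.90 ± 0.18, 95% limits 0.52 to 1.28, adjusted p = 0.0074), and this call held in 22 of 22 alternatives, with an adjusted p of 0.0085 after TMM-type rescaling. Compared with Fluo-4 normal fibers, Camk2b was 1.64 times higher (log2 change 0.71 ± 0.18, 95% limits 0.33 to 1.09, adjusted p = 0.024) and higher in 4 of 4 pairs, by 0.38 to 0.95. The adjusted p of that difference was 0.073 with TMM-type rescaling, and 0.054 to 0.091 without Fluo-4 normal replicate 1 or 4 or Fluo-4 abnormal replicate 2 or 3. The Camk2b change from young to Fluo-4 normal fibers was 0.19 ± 0.18 (95% limits -0.19 to 0.57, adjusted p = 0.71).

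Camk2a, coding for the alpha subunit, followed another pattern. Its levels were 111, 146, 130 and 112 TPM in young fibers, 65.6, 77.6, 95.1 and 82.8 TPM in Fluo-4 normal fibers, and 99.7, 127, 123 and 102 TPM in Fluo-4 abnormal fibers. The Fluo-4 normal samples were below all others, and young and Fluo-4 abnormal fibers overlapped. Camk2a was lower in Fluo-4 normal than in young fibers (0.64 times, log2 change -0.63 ± 0.12, adjusted p = 0.028) and higher in Fluo-4 abnormal than in Fluo-4 normal fibers (1.40 times, log2 change 0.49 ± 0.12, adjusted p = 0.026). The abnormal to young change of Camk2a was -0.14 ± 0.12 (95% limits -0.41 to 0.12, adjusted p = 0.54). After TMM-type rescaling it was -0.32 (adjusted p = 0.050, not called), so the likeness of Camk2a in these 2 groups depends on the scaling. Scaling without the mitochondrially-encoded genes gave Camk2a an adjusted p of 0.052 between the aged groups, and TMM-type rescaling gave 0.12. The call between the aged groups also ended without Fluo-4 normal replicate 1, 2 or 4 or Fluo-4 abnormal replicate 2 or 3 (log2 change 0.40 to 0.51, adjusted p 0.053 to 0.095). The lower Camk2a of Fluo-4 normal fibers was not called without young replicate 1, 2 or 3 or Fluo-4 normal replicate 1, 2 or 4 (log2 change -0.69 to -0.54, adjusted p 0.050 to 0.13).

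Camk2g, the gamma subunit gene, was low in all groups. Its levels were 5.96, 7.68, 7.26 and 5.48 TPM in young fibers, 5.39, 7.25, 6.46 and 8.93 TPM in Fluo-4 normal fibers and 5.02, 8.78, 10.7 and 7.04 TPM in Fluo-4 abnormal fibers. The groups overlapped, and the abnormal to normal change of 0.13 ± 0.20 (95% limits -0.31 to 0.56, adjusted p = 0.73) took the other sign with TMM-type rescaling (-0.07). Camk2d, the delta subunit gene and not one of the 9, ranged from 19.6 to 33.2, 23.6 to 27.0 and 25.8 to 29.6 TPM in young, Fluo-4 normal and Fluo-4 abnormal fibers and passed no test.

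**Figure D2:**
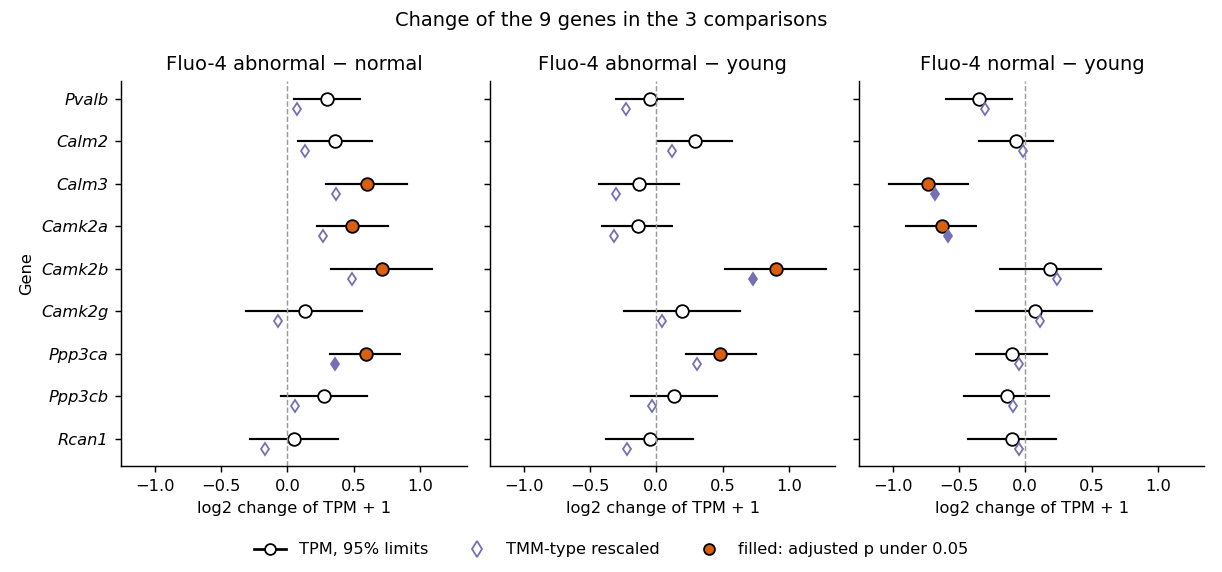
Log2 change of TPM + 1 of the 9 genes (rows) in the 3 comparisons (panels), as circles with 95% limits, and as diamonds after TMM-type rescaling of the samples. Filled symbols mark an adjusted p under 0.05. Ppp3ca is filled on both scales between the aged groups, Camk2b against young fibers, and Calm3 and Camk2a for Fluo-4 normal against young fibers.

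Of the calcineurin A genes, Ppp3ca rose and Ppp3cb did not pass the test. Ppp3ca, the alpha isoform, was at 75.0, 75.9, 77.4 and 68.5 TPM in young fibers, 54.0, 72.5, 78.1 and 73.5 TPM in Fluo-4 normal fibers, and 90.5, 118, 121 and 90.4 TPM in Fluo-4 abnormal fibers. All 4 Fluo-4 abnormal samples were above the other 8, and young and Fluo-4 normal fibers overlapped. Ppp3ca was 1.50 times higher in Fluo-4 abnormal than in Fluo-4 normal fibers (log2 change 0.59 ± 0.12, 95% limits 0.32 to 0.85, adjusted p = 0.012), and 0.36 higher on the log2 scale after TMM-type rescaling (adjusted p = 0.039). That call was lost without Fluo-4 abnormal replicate 2 (log2 change 0.53, adjusted p = 0.051). Against young fibers Ppp3ca was 1.40 times higher (log2 change 0.48 ± 0.12, adjusted p = 0.029), with an adjusted p of 0.063 after TMM-type rescaling. The call against young fibers was also lost without any 1 of the 4 young samples or without Fluo-4 abnormal replicate 2 or 3 (log2 change 0.41 to 0.50, adjusted p 0.063 to 0.098).

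Ppp3cb, the beta isoform, was at 24.0, 28.3, 27.4 and 20.3 TPM in young fibers, 18.5, 25.4, 21.0 and 25.5 TPM in Fluo-4 normal fibers, and 23.1, 30.8, 33.9 and 23.1 TPM in Fluo-4 abnormal fibers. The 3 groups overlapped, and the abnormal to normal change was 0.28 ± 0.15 (95% limits -0.05 to 0.60, adjusted p = 0.27). Outside the 9, Ppp3cc averaged 22.3 ± 2.30, 22.0 ± 3.88 and 25.8 ± 3.12 TPM in the same order of groups and passed no test. The regulatory B subunit gene Ppp3r1 averaged 55.6 ± 1.70, 43.1 ± 5.52 and 57.3 ± 6.98 TPM, and rose by 0.40 ± 0.10 between the aged groups (adjusted p = 0.024, and 0.20 with TMM-type rescaling). Against young fibers, the Ppp3r1 value differed by -0.37 ± 0.10 in Fluo-4 normal fibers (adjusted p = 0.10, and 0.048 with TMM-type rescaling). Without Fluo-4 normal replicate 1 or Fluo-4 abnormal replicate 2 or 3 the adjusted p of the Ppp3r1 difference between the aged groups was 0.051 to 0.074. GENCODE has Dnaaf10 across 18276 bases of Ppp3r1 on the same strand, so reads there could belong to either gene.

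Rcan1, the calcineurin inhibitor, passed no test. It was at 48.8, 69.7, 75.4 and 47.5 TPM in young fibers, 46.5, 54.7, 57.9 and 62.9 TPM in Fluo-4 normal fibers, and 57.8, 67.5, 49.4 and 55.3 TPM in Fluo-4 abnormal fibers. The groups overlapped throughout. Its log2 difference was 0.05 ± 0.15 between the aged groups (95% limits -0.28 to 0.38, adjusted p = 0.87), was higher in 2 of 4 pairs, and took the other sign with TMM-type rescaling (-0.17). The limits allow a level from 0.83 to 1.30 times that of Fluo-4 normal fibers. The log2 ratio of Rcan1 to the summed calcineurin A genes was -1.28, -0.86, -0.78 and -1.23 in young fibers, -0.95, -1.18, -1.09 and -0.93 in Fluo-4 normal fibers and -1.22, -1.38, -1.88 and -1.34 in Fluo-4 abnormal fibers. All samples of the last group were below the Fluo-4 normal samples, by a narrow gap. The mean difference of this ratio was -0.42 (exact permutation p = 0.0286, two-sided, the smallest that 70 arrangements allow; Benjamini-Hochberg adjusted p = 0.0857 over 30 tests of shares and ratios).

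The related inhibitor gene Rcan2, from the list of calcineurin regulators, was at 16.5, 23.8, 20.6 and 16.5 TPM in young fibers, 12.6, 21.8, 14.8 and 15.6 TPM in Fluo-4 normal fibers, and 7.01, 8.56, 6.94 and 6.69 TPM in Fluo-4 abnormal fibers. Each Fluo-4 abnormal sample was below each of the other 8. Rcan2 fell to 0.49 times the Fluo-4 normal level (log2 change -1.03 ± 0.16, adjusted p = 0.0028), and the change was -1.23 (adjusted p = 0.00016) with TMM-type rescaling. That call held in 21 of 23 alternatives and was lost with the Myh4 share as a covariate (-0.78, adjusted p = 0.054) and with the covariate and the replicate block together (-1.02, adjusted p = 0.12). It also fell against young fibers (log2 change -1.28 ± 0.16, adjusted p = 0.00052), in 22 of 22 alternatives.

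**Figure D3:**
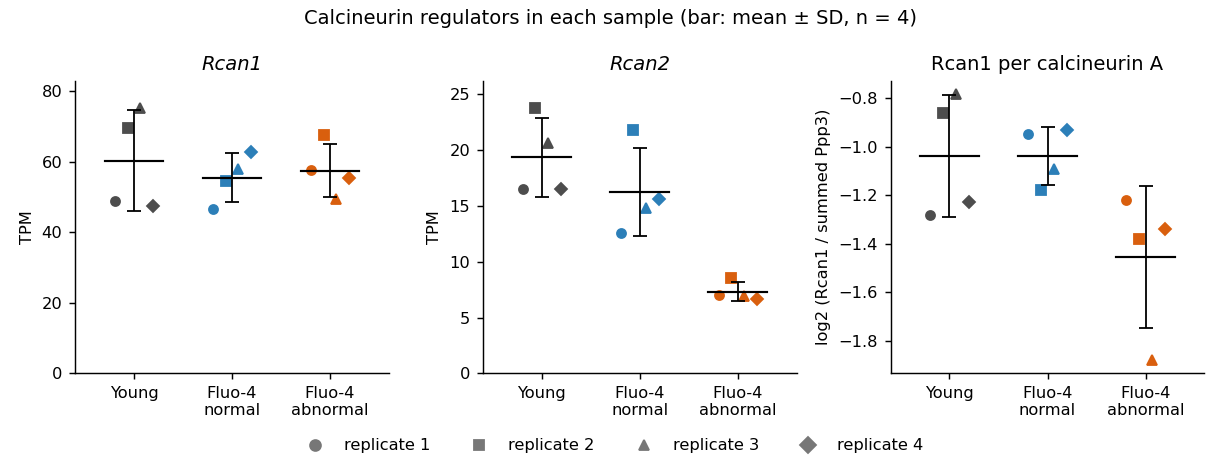
TPM of Rcan1 and Rcan2, and the log2 ratio of Rcan1 to the summed calcineurin A genes Ppp3ca, Ppp3cb and Ppp3cc, in each sample, with groups on the horizontal axis, marker shapes for the replicate number and bars for the mean ± SD (n = 4). Rcan1 overlaps between groups, while Rcan2 is at 6.69 to 8.56 TPM in Fluo-4 abnormal fibers and at 12.6 TPM or more elsewhere.

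Comparisons with young fibers used the same young samples for both aged groups, so their values stand side by side without a test of likeness. In Fluo-4 abnormal fibers 2 of 9 members passed the test, Camk2b and Ppp3ca, both higher, beside 8.50% of all genes called and 6.09% called higher. Their ranges were also the members' 2 that did not overlap with young fibers, beside 16.2% of all genes. In Fluo-4 normal fibers 2 of 9 members passed the test, Calm3 and Camk2a, both lower, beside 1.15% of all genes called and 0.589% called lower. Calm3, Camk2a and Pvalb did not overlap with young fibers in that comparison, beside 7.98% of all genes. With a filter of 5 TPM, 1341 of 6348 genes and 2 members were called in Fluo-4 abnormal fibers, and 266 genes and 3 members in Fluo-4 normal fibers. The median change of the 9 members was 0.13 in Fluo-4 abnormal and -0.10 in Fluo-4 normal fibers, compared with 0.07 and -0.02 over all genes. Among genes with a mean of at least 5 TPM it was 0.12 and -0.07.

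Shares within a gene family do not depend on how the samples are scaled, and those of Camk2a and Camk2b separated young from aged samples without overlap. Camk2a held 64.7% ± 0.969 (SD, n = 4) of the summed Camk2a, Camk2b, Camk2d and Camk2g TPM in young fibers, 52.4% ± 3.28 in Fluo-4 normal fibers and 52.3% ± 1.47 in Fluo-4 abnormal fibers. Camk2b held 18.3% ± 2.22, 26.5% ± 3.42 and 30.9% ± 3.09. Both aged groups were clear of the young range for both genes, 63.4 to 65.6% for Camk2a and 16.1 to 20.9% for Camk2b. Each of these 4 differences had the smallest p that the exact permutation test allows (0.0286, two-sided) and an adjusted p of 0.0857, so none passed the adjustment. Between the aged groups the Camk2b share was 4.44 percentage points higher in Fluo-4 abnormal fibers, higher in 4 of 4 pairs (exact permutation p = 0.114), and the Camk2a share differed by -0.169 points (p = 0.886, same exact test). Camk2g held 3.41%, 4.59% and 3.59% in young, Fluo-4 normal and Fluo-4 abnormal fibers.

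Ppp3ca held 66.2% ± 1.12 of the calcineurin A transcripts in Fluo-4 abnormal fibers, 60.9% ± 1.97 in Fluo-4 normal and 61.1% ± 1.67 in young fibers. The Fluo-4 abnormal samples (64.6 to 67.2%) were above all 8 others, which reached 63.3%. The exact permutation p was 0.0286 in both comparisons (adjusted p = 0.0857). The summed CaMKII to calcineurin A log2 ratio was 0.66 ± 0.11 in young fibers, 0.43 ± 0.05 in Fluo-4 normal and 0.45 ± 0.03 in Fluo-4 abnormal fibers, again without overlap between young and aged samples. The log2 ratio of Pvalb to summed adult myosin heavy chains was 1.31 ± 0.18, 1.18 ± 0.47 and 0.86 ± 0.40 in the same order. Those groups overlapped.

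**Figure D4:**
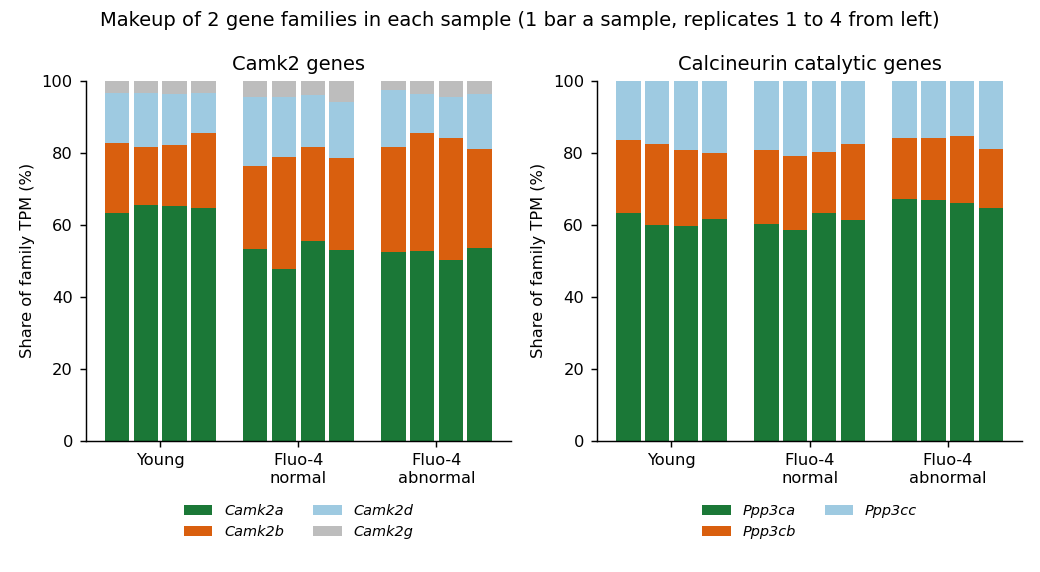
Percent of the summed TPM of the CaMKII and calcineurin A gene families held by each gene, with 1 stacked bar a sample and groups on the horizontal axis. Camk2a holds 63.4 to 65.6% in young fibers and 47.8 to 55.4% in aged fibers, and Ppp3ca holds most in Fluo-4 abnormal fibers (64.6 to 67.2%).

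Other genes of these pathways were counted in lists, between the aged groups unless stated. All these counts stand beside 7.36% of all tested genes called higher and 287 of 14429 genes called lower. A count of 1 in a list of 10 or 13 genes lies near the share called higher. Of the 13 buffer and calmodulin genes counted here 1 rose (Calm3) and 0 fell. The small calcium-binding gene S100a1 averaged 355 ± 32.1 TPM in Fluo-4 normal and 301 ± 20.0 TPM in Fluo-4 abnormal fibers (adjusted p = 0.056, and 0.0043 with TMM-type rescaling). Of 5 calcineurin subunit genes 2 rose (Ppp3ca and Ppp3r1), and of 10 regulators and anchors 1 rose and 1 fell. The riser was Fkbp1a, which codes for the FK506-binding protein of the ryanodine receptor, with 110 ± 4.60 and 131 ± 11.2 TPM (adjusted p = 0.041, and 0.91 with TMM-type rescaling), and the gene that fell was Rcan2. The Fkbp1a call was lost without young replicate 1 or 3, any Fluo-4 normal sample, or Fluo-4 abnormal replicate 2 or 4 (adjusted p 0.054 to 0.11).

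Of the 4 NFAT genes 0 passed the limma test, and 2 had an unadjusted p under 0.05 (Nfatc1 and Nfatc2). Nfatc1, the most abundant of them, averaged 12.0 ± 2.91 TPM in Fluo-4 normal and 16.4 ± 2.75 TPM in Fluo-4 abnormal fibers (log2 change 0.44 ± 0.16, adjusted p = 0.11), with an adjusted p of 0.022 under the replicate block, a change of 0.23 (adjusted p = 0.36) under TMM-type rescaling and one of 0.75 (adjusted p = 0.049) when the fit held the Myh4 share. Of 12 CaMK kinases and inhibitors 3 rose and 0 fell, beside 7.36% of all tested genes called higher, and 0 rose with TMM-type rescaling. Beside Camk2a and Camk2b this was Pnck, a CaMKI-type kinase gene, with 3.70 ± 0.358 and 5.85 ± 0.316 TPM (log2 change 0.55 ± 0.12, adjusted p = 0.016, and 0.12 with TMM-type rescaling). Of 10 MEF2 and class IIa histone deacetylase genes Mef2c alone rose, from 176 ± 25.7 to 246 ± 39.0 TPM (adjusted p = 0.030, and 0.12 with TMM-type rescaling). Mef2c also rose against young fibers (log2 change 0.58 ± 0.13, adjusted p = 0.014). Leaving out young replicate 3, Fluo-4 normal replicate 1 or 4 or Fluo-4 abnormal replicate 2, 3 or 4 took the Mef2c call between the aged groups to an adjusted p of 0.053 to 0.10, and leaving out young replicate 4 or Fluo-4 abnormal replicate 2 took the call against young fibers to 0.058 and 0.052.

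Of 13 calmodulin-bound enzyme genes 4 rose and 0 fell, beside 7.36% of all tested genes called higher, and 2 rose with TMM-type rescaling. Phkb and Phka1 code for subunits of phosphorylase kinase, the enzyme that couples calcium to glycogen breakdown. Phkb averaged 167 ± 22.1 TPM in Fluo-4 normal and 230 ± 11.5 TPM in Fluo-4 abnormal fibers (log2 change 0.47 ± 0.09, adjusted p = 0.0087, and 0.034 with TMM-type rescaling). Phka1 averaged 152 ± 17.6 and 214 ± 14.2 TPM (log2 change 0.50 ± 0.10, adjusted p = 0.011, and 0.048 with TMM-type rescaling). Its catalytic subunit gene Phkg1 and Eef2k, the elongation factor 2 kinase, rose by 0.31 ± 0.08 and 0.53 ± 0.11 (adjusted p = 0.026 and 0.014), and by 0.08 and 0.31 with TMM-type rescaling, where neither passed. The Phkg1 call was lost without Fluo-4 abnormal replicate 1, 2 or 3 or Fluo-4 normal replicate 2 (adjusted p 0.051 to 0.077), and that of Eef2k without Fluo-4 abnormal replicate 2 (0.051).

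Fiber-type genes were counted in the same way. Of 12 slow fiber genes 2 rose, Atp2a2 and Sln, beside 7.36% of all genes called higher. Both were low, at 2.02 ± 0.729 and 4.86 ± 1.49 TPM for Atp2a2 in Fluo-4 normal and Fluo-4 abnormal fibers. Sln was at 3.29 ± 1.98 and 15.6 ± 13.6 TPM, with 1 Fluo-4 abnormal sample at 35.1 TPM. On the same list Myh7, Tnnt1, Tnni1, Tnnc1, Myl2, Myl3 and Myh7b averaged at most 0.942 TPM over the 12 samples. Of 12 fast fiber genes 5 rose, among them Mybpc2, Tpm1, Myh4 and the calsequestrin gene Casq1. With TMM-type rescaling Atp2a2 and Mybpc2 alone stayed called in these lists. Myh1, on the fast list, averaged 334 ± 227 TPM in Fluo-4 normal and 76.1 ± 48.0 TPM in Fluo-4 abnormal fibers. It was called lower with the replicate block. Atp2a2 was called in 13 of 22 alternatives and Sln in 6 of 23, and the Myh4 call was lost without Fluo-4 normal replicate 1 or Fluo-4 abnormal replicate 2 or 3 (adjusted p 0.053 to 0.076) and with TMM-type rescaling (0.18). Casq1 followed the order seen in Calm3 and Camk2a, with 3665 ± 151 TPM in young, 2284 ± 138 in Fluo-4 normal and 3238 ± 167 in Fluo-4 abnormal fibers (adjusted p = 0.00042 for Fluo-4 normal against young, and 0.0017 between the aged groups, where TMM-type rescaling gave 0.20). With the Myh4 share as a covariate Calm3, Camk2b and Ppp3ca remained called between the aged groups (adjusted p = 0.042, 0.018 and 0.027), beside 5.68% of all genes, and Camk2a was at 0.067. With that covariate and the replicate block together limma called 0 members and 22 genes in all, and 4 members (Calm3, Camk2b, Ppp3ca and Pvalb) had an unadjusted p under 0.05.

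The genes closest in profile over the 12 samples were sought for the 3 members that varied most. Profiles were compared by the root mean square difference of centered log2 levels among 4468 genes with a mean of at least 10 TPM. Closest to Camk2b were Net1 (0.11), Vps37c (0.14) and Smyd2 (0.16). Closest to Calm3 were Stk11 (0.13), Ssx2ip (0.15) and Tmcc2 (0.16), and closest to Camk2a were Homer1, Map7d1 and Jph2 (0.11 each), of which Jph2 codes for a junctophilin of the triad. These are descriptions of 12 samples in 3 groups, with no test.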

How the data were processed

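The deposited files give TPM values per gene, computed by the authors with DRAGEN 4.3 after alignment to GRCm39. Libraries were made with SMART-Seq v4 from 10 ng of total RNA. Each file holds 55487 lines and sums to 1000000 TPM, with 16841 to 17936 genes above 0. TPM keeps no depth, so no counting interval can be given. Gene names matched GENCODE vM39 for 49848 of 55367 symbols, while 2876 matched no table and held at most 0.298% of TPM.

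Samples were grouped by the labels. TPM are not counts, so log2(TPM + 1) was tested with limma 3.58.1 (R 4.3.3, variance trend, two-sided, all 12 samples in 1 fit) on 14429 protein-coding and mitochondrially-encoded genes with a group mean of at least 0.02 TPM in 1 group, with Benjamini-Hochberg adjustment over all of them at 0.05. Fold changes are therefore on the scale of TPM + 1. Shares and ratios were compared with the exact permutation test. Transcript copies were sought with BLAST 2.17.0. The fit was tested on simulated data. The labels give replicate numbers 1 to 4 in every group. Deviations of same-numbered aged samples correlated at 0.51, 0.42, 0.46 and 0.33 over 4468 genes, so the numbers were taken to pair the aged samples. Numbers of young and aged samples correlated at -0.12 to 0.24 and were not taken as pairs in the main fit. The replicate block still joined young and aged samples by number in the comparisons with young fibers.

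The members and gene lists were chosen with earlier results of these data known. Named were the 9 members, Camk2d, Ppp3cc and Ppp3r1, genes with the smallest p of each list, the myosin genes and the genes of nearest profile. Phkg1 and the markers Cd3e and Des fall outside this rule and were chosen after their values were seen. A gene of the lists, with the shares and sums that need it, is not reported here. Alternatives were TMM-type factors (trimming 30% of ratios and 5% of levels), scaling without mitochondrially-encoded genes, a pseudocount of 0.1, no filter or a filter of 5 TPM, all annotated entries, the replicate block, the Myh4 share, only the groups compared, sample weights and leaving out each sample.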

Additional observations from a re-analysis of the deposited data

Results flagged for a closer look

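The levels of the 9 members and the family shares and ratios gave 57 groups of 4 samples that were searched for a sample far from the rest, of which chance alone marks about 1 in 20. In 2 groups a sample stood apart. Ppp3cb held 17.1% of the calcineurin A transcripts in Fluo-4 normal replicate 3, compared with 20.6 to 21.2% in the other 3 Fluo-4 normal samples. Ppp3cc held 18.9% in Fluo-4 abnormal replicate 4, compared with 15.2 to 15.8% in the other 3 Fluo-4 abnormal samples. Neither gene passed a test of its level, and no sample of Pvalb, Calm2, Calm3, Camk2a, Camk2b, Camk2g, Ppp3ca or Rcan1 TPM was marked.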

How the results depend on the processing

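Among the alternative values of the members' changes, 528 kept their direction and their side of the threshold, 51 lost the call, 4 gained it and 20 changed sign. The causes were not tested.

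Between the aged groups 1349 genes and 4 members were called. TMM-type factors gave 848 genes, with 306 higher and 542 lower in place of 1062 and 287, and 1 member. The Myh4 share covariate gave 820 genes. Only the groups compared gave 566 genes and 0 members, of which 5 had an unadjusted p under 0.05. Leaving out 1 sample gave 606 to 1420 genes and 0 to 4 members, with 0 without Fluo-4 abnormal replicate 2. Against young fibers, Fluo-4 abnormal fibers had 1227 genes and 2 members called, with 1 member under TMM-type factors and 576 to 1677 genes and 1 to 2 members with 1 sample left out. Fluo-4 normal fibers had 166 genes and 2 members called. A filter of 5 TPM gave 266 genes, sample weights 358, and only the groups compared 69 genes and 0 members. No filter gave 0 members, and 3 had an unadjusted p under 0.05 under either of those 2 settings. Leaving out 1 sample gave 45 to 183 genes and 0 to 2 members.

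With the replicate block, which pairs the aged samples by number, 2281 genes were called between the aged groups. For Fluo-4 normal against young fibers 320 genes were called. In the comparisons with young fibers the block joined young and aged samples of the same number. The block together with the Myh4 share covariate left 22 genes and 0 members between the aged groups. For the pathway lists, with their members included, 19 genes rose and 1 fell between the aged groups, compared with 31 and 3 under the replicate block and 5 and 2 under TMM-type factors. Against young fibers, 7 rose and 1 fell in Fluo-4 abnormal fibers, compared with 12 higher under the replicate block and with 4 higher and 4 lower under TMM-type factors. The block changed no call of a member other than Pvalb and Calm2. The paired test of shares has a smallest p of 0.125.

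Small changes crossed 0. Between the aged groups, Camk2g changed by -0.07 with TMM-type factors, -0.32 with the block and covariate, and -0.02 to 0.30 with 1 sample left out. Rcan1 changed by -0.17 with TMM-type factors, -0.01 without mitochondrially-encoded genes and with sample weights, -0.12 with the block and covariate, and -0.03 to 0.12 with 1 sample left out. Against young fibers in Fluo-4 normal fibers, Camk2b changed by -0.02 with the covariate, and with 1 sample left out Calm2 by -0.14 to 0.02, Camk2g by -0.04 to 0.17, Ppp3ca by -0.16 to 0.01 and Rcan1 by -0.20 to 0.02. In Fluo-4 abnormal against young fibers Ppp3cb changed by -0.03 with TMM-type factors and Rcan1 by -0.15 to 0.07 with 1 sample left out.

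Differences of shares, none of which passed adjustment, are in percentage points. Without the lowest paralog in the denominator, the Ppp3ca share differed by 0.506 in Fluo-4 normal against young fibers, and the log2 CaMKII to calcineurin A ratio by -0.01 between the aged groups. With 1 sample left out, differences of Fluo-4 abnormal from young fibers were -1.08 to 0.523 for Camk2d and -0.0749 to 0.494 for Camk2g. Those of Fluo-4 normal from young fibers were -1.05 to 0.532 for Ppp3ca, -1.38 to 0.308 for Ppp3cb and -0.08 to 0.09 for the log2 Rcan1 to calcineurin A ratio. The Camk2a share differed by -1.73 to 0.833 between the aged groups.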
